A study of Mus musculus with 9 samples.

Results

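The 10 genes described here mark radial glia and the astroglial lineage: Fabp7, Slc1a3, Ncan, Ptn, Prom1, S100b, Aldoc, Nfia, Nfib and Nfix. They were taken by symbol from a table of 24100 genes, all 10 were found, and all 10 were among the 14761 genes with enough counts to be tested. Poly(A) RNA had been sequenced from neural cells, so named by the labels, grown from mouse embryonic stem cells (mESCs). Every group, the controls included, stably expressed histone H4 with a 3HA tag from a PiggyBac transposon: H4K91Q (lysine 91 replaced by glutamine), H4K91R (lysine 91 replaced by arginine) or H4WT (wild type), with 3 libraries each. The column names of the table carry the tag 4D, which no label explains. The labels give no promoter or dose for the transgene, are silent on whether replicates came from separate cultures or clones, and name no untransfected cells. The p-values thus measure only the spread between these libraries.

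Radial glia are the dividing stem cells that line the embryonic neural tube. They make neurons first and glia later, and many of their genes are kept by astrocytes. The nuclear factor I (NFI) proteins are transcription factors that act in the step to glia, and Fabp7 and the glutamate transporter Slc1a3 are widely used to find the cells. Several of these genes are used outside glia as well, pleiotrophin by mesenchymal cells among others.

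Library totals ran from 8970553 to 28887501 counts, a ratio of 3.22, and levels are given in CPM, counts as a rate of the library total, after scaling by the trimmed mean of M values (TMM). Neural markers were present in all 3 groups, and so were markers of other cells. The summed level of 20 neuronal genes was 1682 to 1835 CPM in H4K91Q, 2134 to 2520 CPM in H4K91R and 1432 to 1648 CPM in H4WT. That of 10 fibroblast and mesenchyme genes was 6768 to 7441 CPM in H4K91Q, 6379 to 7255 CPM in H4K91R and 5807 to 6770 CPM in H4WT. That of 10 smooth muscle genes was 474.6 to 536 CPM in H4K91Q and 498.7 to 784.8 CPM in H4K91R, against 4101 to 4938 CPM in H4WT. Of the neuronal sum, Dpysl3 alone had means of 374.2 CPM in H4K91Q, 473.8 CPM in H4K91R and 912.8 CPM in H4WT, the largest part of the H4WT sum. It fell in both mutants, while 17 of the 20 neuronal genes rose in each, as given below. These are bulk samples, in which fewer cells of a type and less RNA per cell cannot be told apart.

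Most of the 10 genes were higher in both mutants. In H4K91Q against H4WT 9 rose, 0 fell and 1, Ptn, did not pass the test, with a median log2 change of 0.91 (Ptn passes too with a replicate block; edgeR quasi-likelihood test, Benjamini-Hochberg adjusted p below 0.05 over all tested genes). Over all tested genes 22.5% rose and 23.8% fell in that comparison, with a median of 0.013. In H4K91R against H4WT the same 9 rose, 0 fell and Ptn did not pass, with a median of 1.17. There 20.9% of all tested genes rose and 25.1% fell, with a median of -0.030. These comparisons share the 3 H4WT libraries. The 10 genes were chosen with earlier results of these data known, so setting their counts beside all genes is no independent test. Between the mutants, H4K91Q against H4K91R, 1 gene was higher (S100b), 3 were lower (Fabp7, Ncan and Aldoc) and 6 did not pass, with a median of 0.16. Of all tested genes 2.37% were higher and 2.78% lower there, with a median of 0.0054.

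**Figure D1:**
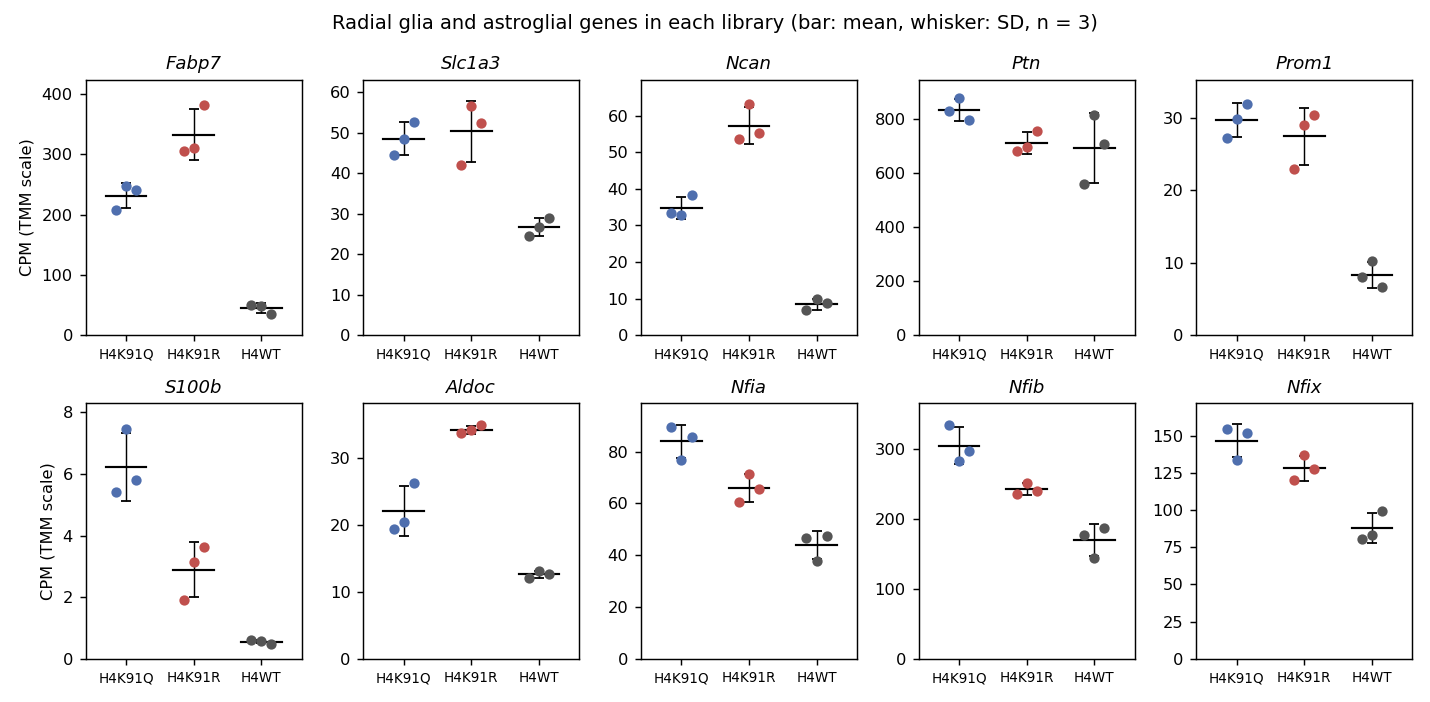
Level of each of the 10 genes in every library, in CPM on the TMM scale, with H4K91Q, H4K91R and H4WT from left to right; points are libraries, the bar is the mean and the whisker the SD (n = 3). For 9 genes every mutant library lies above every H4WT library, and for Ptn the H4WT libraries at 557.6 to 815.5 CPM overlap both mutants. The share of all tested genes that separate in this way was not counted.

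Fabp7 encodes the brain fatty acid binding protein, also called BLBP, which carries long-chain fatty acids inside radial glia (Entrez 12140, chr10:57784923-57788450, plus strand, GRCm38.p6). It stood at 207.3, 246.7 and 240.3 CPM in H4K91Q replicates 1 to 3, at 306.3, 309.9 and 382.4 CPM in H4K91R, and at 50.26, 49 and 34.9 CPM in H4WT. The 3 groups did not overlap, and H4K91R was the highest. The log2 change was 2.36 ± 0.13 in H4K91Q against H4WT (SE, adjusted p = 1.47e-07, edgeR), a 5.13-fold difference. In H4K91R against H4WT it was 2.88 ± 0.13 (adjusted p = 3.51e-08, edgeR), or 7.38-fold. H4K91Q was lower than H4K91R by a log2 change of -0.52 ± 0.12 (adjusted p = 0.0277, edgeR). That last call was lost when any one of 4 libraries was left out: H4K91Q replicate 1 (adjusted p = 0.119) or 2 (0.0618), or H4K91R replicate 2 (0.0677) or 3 (0.0648).

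The fatty acid binding protein family did not move as a whole. Of its 8 genes 3 had enough counts to be tested, and Fabp7 alone of them was higher in the mutants. Fabp3, the heart form, fell to 300.7 ± 17.5 CPM in H4K91Q and 301.6 ± 15.5 CPM in H4K91R, against 428.2 ± 19.3 CPM in H4WT (mean ± SD, n = 3; log2 changes -0.51 and -0.51, adjusted p = 6.48e-05 and 6.34e-05, edgeR). Fabp5, the epidermal form, also fell in H4K91Q (log2 change -0.42, adjusted p = 0.00421, edgeR), and in H4K91R its change of -0.24 missed the threshold (adjusted p = 0.0691, edgeR) but passed without H4WT replicate 2, at -0.37 (adjusted p = 0.00132, edgeR). Fabp7 made up 38.2% of the summed CPM of the family in H4K91Q and 46.3% in H4K91R, against 7.80% in H4WT. Fabp6 and Fabp12 had no counts in any library.

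Ncan encodes neurocan, a chondroitin sulfate proteoglycan of the brain matrix that binds hyaluronan (Entrez 13004, chr8:70093085-70120863, minus strand). Its level was 33.32, 32.93 and 38.2 CPM in H4K91Q, 53.69, 63.07 and 55.14 CPM in H4K91R, and 6.733, 9.741 and 8.695 CPM in H4WT. As for Fabp7, the groups did not overlap and H4K91R was the highest. Against H4WT the log2 change was 2.0 ± 0.13 in H4K91Q (adjusted p = 2.7e-07, edgeR) and 2.72 ± 0.13 in H4K91R (adjusted p = 3.51e-08, edgeR). Between the mutants it was -0.72 ± 0.11 (adjusted p = 0.00337, edgeR), and this call held in all 17 alternatives tried.

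Among the hyalectans, the proteoglycan family of neurocan, and 10 partners in the matrix, 10 of 14 genes could be tested. In H4K91Q 3 rose and 2 fell (against 22.5% and 23.8% of all tested genes), and in H4K91R 4 rose and 2 fell (against 20.9% and 25.1%). Bcan, which encodes brevican, moved like Ncan, at 3.32 ± 0.40 CPM in H4K91Q and 5.35 ± 0.77 CPM in H4K91R, against 1.01 ± 0.081 CPM in H4WT (log2 changes 1.72 and 2.43, adjusted p = 4.46e-05 and 1.87e-06, edgeR). Vcan, which encodes versican and is found in many tissues, had log2 changes of 0.32 in H4K91Q (adjusted p = 0.0365) and 0.22 in H4K91R (adjusted p = 0.141, edgeR). Its call in H4K91Q was lost without H4K91Q replicate 1 or 3 or H4WT replicate 1 or 2 (adjusted p = 0.0796 to 0.163), and in H4K91R it passed without H4WT replicate 3 (0.0274). Without H4WT replicate 1 the list had 2 risen genes in H4K91R. The genes that fell in both mutants were Tnc and Cd44. Tnc, which encodes the matrix protein tenascin-C, fell to 180.3 ± 46.1 CPM in H4K91Q and 328.5 ± 222.7 CPM in H4K91R, against 1473 ± 357 CPM in H4WT (log2 changes -3.03 and -2.16, adjusted p = 3.59e-05 and 0.000372, edgeR). Tnc is used as a marker of radial glia and is also made by smooth muscle and fibroblasts, and the smooth muscle list was lower in the same libraries; its part in the change of Tnc was not tested.

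Prom1 encodes prominin-1 (CD133), a membrane protein of cell protrusions found on neural stem cells (Entrez 19126, chr5:43993621-44102047, minus strand). It had 27.15, 29.84 and 31.82 CPM in H4K91Q, 22.96, 28.94 and 30.33 CPM in H4K91R, and 8.056, 10.22 and 6.613 CPM in H4WT. Both mutants lay above H4WT and overlapped each other. It rose by 1.77 ± 0.15 on the log2 scale in H4K91Q (adjusted p = 1.81e-06, edgeR) and by 1.65 ± 0.15 in H4K91R (adjusted p = 2.4e-06, edgeR), with a difference of 0.12 between the mutants (95% interval -0.17 to 0.41, adjusted p = 0.647, edgeR). An annotated antisense gene, Gm16401, shares 385 of the 4869 exon bases of Prom1. The strand setting of the counting is not given in the sources used here, so reads from the shared bases cannot be told apart.

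Slc1a3 encodes GLAST, the transporter by which radial glia and astrocytes take up glutamate (Entrez 20512, chr15:8634124-8710807, minus strand). It had 44.43, 48.33 and 52.62 CPM in H4K91Q, 41.95, 56.55 and 52.39 CPM in H4K91R, and 24.41, 26.59 and 29.02 CPM in H4WT. The mutants again overlapped each other and lay above H4WT, by a smaller step than for Fabp7, Ncan or Prom1. Its log2 change was 0.86 ± 0.11 in H4K91Q (adjusted p = 5.21e-05, edgeR) and 0.91 ± 0.12 in H4K91R (adjusted p = 3.26e-05, edgeR), with -0.05 between the mutants (95% interval -0.28 to 0.18, adjusted p = 0.826, edgeR).

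Of the 7 genes of the Slc1a family 6 could be tested. In H4K91Q 3 were higher and 3 lower (against 22.5% and 23.8% of all tested genes). In H4K91R 3 were higher and 2 lower (against 20.9% and 25.1%). Those that rose in both were Slc1a3, the other astroglial glutamate transporter Slc1a2, and the neuronal Slc1a1. The Slc1a1 call in H4K91Q (log2 change 0.82, adjusted p = 0.0273, edgeR) was lost without H4K91Q replicate 2 or H4WT replicate 2 or 3 (adjusted p = 0.0831 to 0.135), by DESeq2 (0.0645) and with counts thinned to the smallest library (0.154). Slc1a2 stood at 14.2 ± 1.28 CPM in H4K91Q and 18.2 ± 2.34 CPM in H4K91R, against 4.42 ± 0.53 CPM in H4WT (log2 changes 1.67 and 2.03, adjusted p = 2.03e-06 and 3.35e-07, edgeR). Slc1a5, a carrier of neutral amino acids and not of glutamate, fell in both (log2 changes -0.51 and -0.47, adjusted p = 0.000705 and 0.00138, edgeR). Slc1a6, a glutamate transporter of cerebellar Purkinje cells, had the largest fall of the family, to 0.776 ± 0.11 CPM in H4K91Q and 1.12 ± 0.42 CPM in H4K91R, against 10.98 ± 1.36 CPM in H4WT (log2 changes -3.79 and -3.19, adjusted p = 2.23e-07 and 3.34e-07, edgeR).

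Ptn encodes pleiotrophin, a secreted growth factor that binds heparin and the receptor phosphatase PTPRZ1 (Entrez 19242, chr6:36714924-36810179, minus strand). It was the only one of the 10 genes not called against H4WT in either mutant. Its level was 828, 875.4 and 794.6 CPM in H4K91Q, 679.8, 696.9 and 756 CPM in H4K91R, and 557.6, 815.5 and 707.5 CPM in H4WT. The H4WT libraries spread over the ranges of both mutants, while H4K91Q lay above H4K91R without overlap. On the log2 scale the change was 0.26 in H4K91Q against H4WT (95% interval 0.024 to 0.50, adjusted p = 0.0673, edgeR), 0.034 in H4K91R against H4WT (-0.20 to 0.27, adjusted p = 0.826) and 0.23 between the mutants (-0.0094 to 0.47, adjusted p = 0.243). The H4K91Q change passed the threshold without H4WT replicate 2, at 0.40 (adjusted p = 0.00764, edgeR). With the replicate number as a block over all 9 libraries the change also passed, at 0.28 (adjusted p = 0.036, edgeR). H4K91Q lay above H4WT in 3 of 3 same-numbered pairs. Same-numbered libraries of these 2 groups correlated weakly in their deviations (0.141 to 0.198). The block also covered H4K91R, whose numbers did not match (-0.163 to 0.174 with H4WT), so it is no paired test of the 2 groups. The change of Ptn in H4K91Q passed as well with scaling by library size, at 0.43 (adjusted p = 0.00614, edgeR), with no filter (0.0448) and by DESeq2 (0.0442). In H4K91R the sign turned when one library was left out, to -0.012 without H4K91R replicate 3 and to -0.092 without H4WT replicate 1.

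Ptn and 11 genes of its ligand family, receptors and co-receptors were all tested. In H4K91Q 2 rose and 6 fell (against 22.5% and 23.8% of all tested genes), and in H4K91R 3 rose and 6 fell (against 20.9% and 25.1%). The falls were in part small: 3 were called in H4K91Q and 2 in H4K91R with scaling by library size, 3 in H4K91Q without H4K91Q replicate 1, and 3 in H4K91R without H4K91R replicate 2 or by DESeq2. The sister ligand Mdk, midkine, rose to 164.3 ± 10.7 CPM in H4K91Q and 166.8 ± 14.2 CPM in H4K91R, against 112.9 ± 10.5 CPM in H4WT (log2 changes 0.54 and 0.56, adjusted p = 0.000259 and 0.000186, edgeR). The receptor tyrosine kinase gene Alk also rose, at low levels, to 2.27 ± 0.54 CPM in H4K91Q and 3.85 ± 1.45 CPM in H4K91R, against 0.780 ± 0.25 CPM in H4WT (adjusted p = 0.00477 and 0.00015, edgeR). Ptprz1, the receptor gene most tied to radial glia, had a log2 change of -0.19 in H4K91Q (adjusted p = 0.312), rose by 0.50 in H4K91R (adjusted p = 0.0129) and was lower in H4K91Q than in H4K91R, by -0.69 (adjusted p = 0.0176, edgeR). Its rise in H4K91R was lost without H4K91R replicate 1 or 2 or H4WT replicate 2 (adjusted p = 0.0547 to 0.0679), and its difference between the mutants without H4K91Q replicate 1 or 2 or H4K91R replicate 1 or 2 (0.0597 to 0.0832). The co-receptor genes Sdc3 and Itgav fell in both mutants, Itgav by -1.64 and -1.44 on the log2 scale (adjusted p = 1.25e-05 and 3.04e-05, edgeR).

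S100b encodes a calcium-binding protein found in maturing astrocytes, in some oligodendrocytes and in Schwann cells (Entrez 20203, chr10:76253836-76261319, plus strand). It was the lowest of the 10 genes, with 126, 150 and 99 counts in H4K91Q, 33, 40 and 37 counts in H4K91R, and 5, 16 and 4 counts in H4WT. In CPM these were 5.403, 7.473 and 5.801 in H4K91Q, 1.899, 3.146 and 3.643 in H4K91R, and 0.6012, 0.5926 and 0.4898 in H4WT. The groups did not overlap, and here H4K91Q was the highest. Its log2 change was 3.42 ± 0.30 in H4K91Q against H4WT (adjusted p = 2.05e-06, edgeR), or 10.7-fold, and 2.27 ± 0.34 in H4K91R against H4WT (adjusted p = 0.000119, edgeR), or 4.84-fold. Between the mutants it was 1.15 ± 0.22 (adjusted p = 0.0144, edgeR), a call lost without H4K91Q replicate 2 (adjusted p = 0.0699) or H4K91R replicate 2 (0.0511). In H4WT 3 counts, the most that a count of 0 allows, are worth 0.111 to 0.367 CPM depending on the library, so the level there is close to the limit of detection.

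Of 15 genes of the S100 family 9 could be tested. In H4K91Q 4 were higher and 3 lower (against 22.5% and 23.8% of all tested genes). In H4K91R 3 were higher and 3 lower (against 20.9% and 25.1%). S100a6, S100a10 and S100a11, which many mesenchymal and epithelial cells make, were those that fell. S100a11, for example, fell to 97.6 ± 5.05 CPM in H4K91Q and 95.5 ± 4.31 CPM in H4K91R, against 204.4 ± 40.8 CPM in H4WT (adjusted p = 1.18e-05 and 8.39e-06, edgeR). S100a1 and S100g rose in both mutants, S100a1 not when H4K91Q replicate 1 was left out (adjusted p = 0.0511 in H4K91Q, edgeR). S100b held only 0.675% of the summed CPM of the family in H4K91Q and 0.347% in H4K91R, against 0.0644% in H4WT.

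Aldoc encodes aldolase C, the brain form of a glycolytic enzyme, used as a marker of astrocytes and of Purkinje cell stripes (Entrez 11676, chr11:78323073-78327781, plus strand). It had 19.43, 20.48 and 26.31 CPM in H4K91Q, 33.72, 34.13 and 34.86 CPM in H4K91R, and 12.14, 13.19 and 12.61 CPM in H4WT. The H4K91R libraries lay close together above all others, and H4K91Q lay between them and H4WT. The log2 change was 0.79 ± 0.12 in H4K91Q (adjusted p = 0.000141, edgeR), 1.43 ± 0.12 in H4K91R (adjusted p = 9.66e-07, edgeR) and -0.64 ± 0.11 between the mutants (adjusted p = 0.00729, edgeR). The call between the mutants held in all 17 alternatives. Aldoa, the widely expressed aldolase, moved the other way, to 498 ± 17.2 CPM in H4K91Q and 493.1 ± 24.5 CPM in H4K91R, against 631.5 ± 14.9 CPM in H4WT (log2 changes -0.34 and -0.36, adjusted p = 0.000719 and 0.000503, edgeR).

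The NFI genes Nfia (Entrez 18027, chr4:97578066-98118876, plus strand), Nfib (Entrez 18028, chr4:82290173-82506751, minus strand) and Nfix (Entrez 18032, chr8:84704712-84801238, minus strand) encode transcription factors that bind DNA as dimers. Nfia had 89.41, 76.92 and 85.55 CPM in H4K91Q, 60.66, 71.49 and 65.68 CPM in H4K91R, and 46.77, 37.63 and 47.27 CPM in H4WT. Nfib had 334.4, 282.3 and 296.4 CPM in H4K91Q, 235.4, 251.7 and 240.2 CPM in H4K91R, and 177.1, 143.4 and 187 CPM in H4WT. For both genes the groups stood in the order H4K91Q, H4K91R, H4WT from the highest and did not overlap. Nfix had 154.7, 134 and 151.8 CPM in H4K91Q, 120.3, 137 and 127.4 CPM in H4K91R, and 80.92, 82.97 and 99.56 CPM in H4WT. Its mutant libraries overlapped each other and lay above H4WT.

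The rises of the NFI genes were smaller than those of most other genes of the set. In H4K91Q the log2 changes were 0.95 ± 0.10 for Nfia, 0.85 ± 0.096 for Nfib and 0.75 ± 0.091 for Nfix (adjusted p = 8.77e-06, 1.42e-05 and 2.62e-05, edgeR). In H4K91R they were 0.60 ± 0.10, 0.52 ± 0.097 and 0.55 ± 0.092 (adjusted p = 0.000357, 0.000634 and 0.000293, edgeR). Between the mutants no NFI gene passed: Nfia differed by 0.35 (95% interval 0.14 to 0.56, adjusted p = 0.0577), Nfib by 0.33 (adjusted p = 0.066) and Nfix by 0.20 (adjusted p = 0.216, edgeR). Nfia and Nfib did pass there when low genes were kept in (adjusted p = 0.0264 and 0.0281) or when the fit held only the mutant libraries (0.0383 and 0.0353), and also without H4WT replicate 2 (0.0353 and 0.0301, edgeR). The fourth NFI gene, Nfic, did not pass in either mutant, at 75.8 ± 7.52 CPM in H4K91Q and 80.97 ± 6.90 CPM in H4K91R, against 83.2 ± 11.1 CPM in H4WT (log2 changes -0.13 and -0.032, adjusted p = 0.328 and 0.831, edgeR), and these turned to 0.041 and 0.15 with scaling by library size. Nfic made up 12.4% of the summed NFI CPM in H4K91Q and 15.7% in H4K91R, against 21.7% in H4WT, and Nfib 49.8% in H4K91Q and 46.8% in H4K91R, against 44.0% in H4WT. Nfix shares 137 exon bases with G430095P16Rik and 4 with Lyl1, both on the opposite strand.

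**Figure D2:**
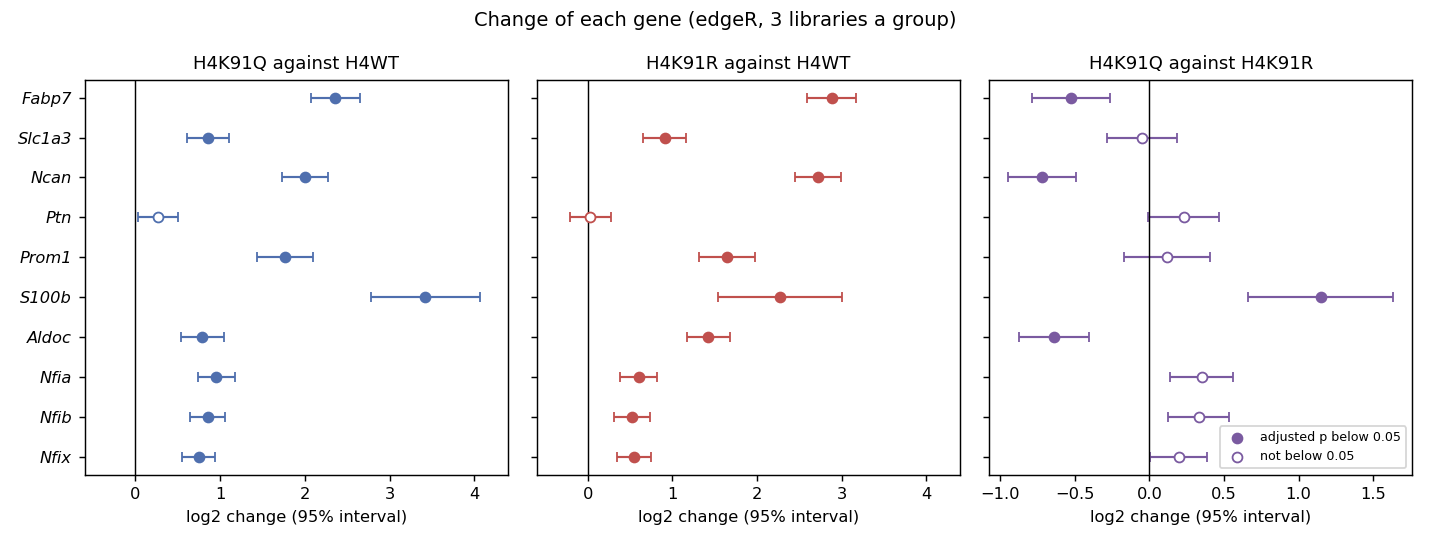
Log2 change of each gene with its 95% interval, for H4K91Q against H4WT, H4K91R against H4WT and H4K91Q against H4K91R (edgeR, 3 libraries a group); filled points have an adjusted p below 0.05. Ptn is the only open point against H4WT, and between the mutants S100b lies to the right at 1.15 while Fabp7, Ncan and Aldoc lie to the left at -0.52 to -0.72.

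Levels were also compared between genes on a scale corrected for gene length, CPM per kilobase of exon. The order of the 10 genes there was the same in H4K91Q and H4WT and differed in H4K91R. Fabp7 had 185.2 CPM per kilobase in H4K91Q and 266.3 in H4K91R, against 35.8 in H4WT. Ptn had 242.6 in H4K91Q and 207.1 in H4K91R, against 202 in H4WT. Ptn was thus the highest of the 10 genes in H4K91Q and H4WT, and Fabp7 in H4K91R. Nfib followed at 33.0 CPM per kilobase in H4K91Q and 26.3 in H4K91R, against 18.3 in H4WT, and S100b was the lowest at 4.195 in H4K91Q and 1.95 in H4K91R, against 0.378 in H4WT.

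Promoter sequence is shown for the 3 genes with the largest rises in the set, Fabp7, Ncan and S100b, and for Ptn, which was not called against H4WT. Since 3 of the 10 genes encode NFI factors, the windows were searched on both strands for the NFI half-site TTGGC, printed in capitals. Windows of 250 bases before to 50 bases after a transcription start came from RefSeq on GRCm38.p6, and 9 of the 10 genes matched, with 14 windows. The 250 bases before the start follow, on the strand of the gene, with the capitals in Fabp7 drawn out over the paired form.
Fabp7, chr10:57784673-57784922, plus strand: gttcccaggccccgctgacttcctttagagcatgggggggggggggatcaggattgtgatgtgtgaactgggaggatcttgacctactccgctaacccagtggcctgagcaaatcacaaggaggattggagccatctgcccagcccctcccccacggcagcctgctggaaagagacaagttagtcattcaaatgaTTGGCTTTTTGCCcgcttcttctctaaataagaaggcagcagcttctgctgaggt
Ncan, chr8:70120845-70121094, minus strand: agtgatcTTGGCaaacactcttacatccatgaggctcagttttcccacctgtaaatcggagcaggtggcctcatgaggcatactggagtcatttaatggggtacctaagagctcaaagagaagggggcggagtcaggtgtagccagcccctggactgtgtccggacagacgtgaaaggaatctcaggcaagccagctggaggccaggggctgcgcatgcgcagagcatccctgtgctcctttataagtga
S100b, chr10:76253586-76253835, plus strand: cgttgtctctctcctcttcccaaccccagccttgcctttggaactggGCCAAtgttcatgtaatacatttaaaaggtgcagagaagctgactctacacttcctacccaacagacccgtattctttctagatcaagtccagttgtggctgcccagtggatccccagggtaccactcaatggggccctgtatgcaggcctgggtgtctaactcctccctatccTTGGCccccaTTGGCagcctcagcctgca
Ptn, chr6:36810180-36810429, minus strand: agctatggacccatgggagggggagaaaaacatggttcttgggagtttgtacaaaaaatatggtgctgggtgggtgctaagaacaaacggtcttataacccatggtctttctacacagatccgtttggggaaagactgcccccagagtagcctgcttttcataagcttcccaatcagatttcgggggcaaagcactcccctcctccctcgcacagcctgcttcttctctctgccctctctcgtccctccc

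In Fabp7 the half-site began 55 bases before the start and was followed by the start of a second, inverted half-site, a form spelled TTGGCNNNNNGCC. That form was searched for only after the Fabp7 window had been read; 1 of the 14 windows and 1.38% of the 32851 windows of all genes held it. The full palindrome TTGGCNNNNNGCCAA was in 0 of the 14 windows and in 0.0365% of all. In S100b the half-site began 203, 29 and 19 bases before the start and 10 bases into the transcript. The half-site letters of Fabp7 at 55 bases and of S100b at 203 and 19 bases before the start also overlap a CCAAT box. Ncan had 1 half-site, 243 bases before the start used for its window, and the window of Ptn held none. The printed Ncan bases begin at 70120845, while the gene span given above reaches 70120863, so those nearest the start lie within that span. Over the set, 6 of the 9 genes and 8 of the 14 windows had at least 1 half-site, while 46.7% of all windows did. The RBPJ motif TGGGAA, bound by the nuclear partner of Notch, was in 7 of the 14 windows and in 25.6% of all, and Ptn, Fabp7, Ncan and S100b all held it. The SOX motifs ACAAAG and ACAATG were in 3 of 14 and in 28.6% of all, and the POU octamer ATGCAAAT in 0 of 14 and in 1.74% of all. A match describes the letters of a window and shows no binding.

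The 10 genes are few among the markers of their lineage, and 2 wider lists, which hold none of them, were counted in the same fit. These lists too were chosen with earlier results of these data known. Of 17 other radial glia genes, all tested, 10 rose and 4 fell in H4K91Q, against 22.5% and 23.8% of all tested genes (list median 0.45). In H4K91R 12 rose and 3 fell, against 20.9% and 25.1% (list median 0.69). In H4K91Q against H4K91R 0 were higher and 4 lower, against 2.37% and 2.78% of all tested genes (list median -0.30). Without H4K91R replicate 1 or 2 or H4K91Q replicate 1 or 2 the lower ones were 1 or 2. Ttyh1, a membrane protein gene of neural stem cells, rose to 23.6 ± 4.27 CPM in H4K91Q and 35.4 ± 5.22 CPM in H4K91R, against 5.27 ± 0.42 CPM in H4WT (log2 changes 2.12 and 2.71, adjusted p = 1.03e-06 and 1.31e-07, edgeR). The Notch target genes Hes5 and Hes1 moved apart. Hes5 rose to 11.5 ± 1.88 CPM in H4K91Q and 23.6 ± 1.66 CPM in H4K91R, against 4.18 ± 0.87 CPM in H4WT (adjusted p = 1.65e-05 and 1.77e-07, edgeR). Hes1 fell to 64.1 ± 1.28 CPM in H4K91Q and 69.98 ± 6.08 CPM in H4K91R, against 162.7 ± 14.4 CPM in H4WT (adjusted p = 2.3e-07 and 2.41e-07, edgeR). Vim and Nes, the intermediate filament genes of radial glia, were picked out after their values were seen. Vim fell in both mutants (log2 changes -0.70 and -0.59, adjusted p = 1.71e-05 and 6.3e-05, edgeR), and Nes fell in H4K91Q by -0.49 (adjusted p = 0.00299) and had a change of -0.12 in H4K91R (adjusted p = 0.421, edgeR), which turned to 0.068 with scaling by library size.

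Of 27 other astroglial genes 22 could be tested. In H4K91Q 14 rose and 2 fell, against 22.5% and 23.8% of all tested genes (list median 0.83). In H4K91R 12 rose and 3 fell, against 20.9% and 25.1% (list median 0.94). Between the mutants 1 was higher and 1 lower, against 2.37% and 2.78% (list median -0.15). With scaling by library size 1 gene was lower in each mutant. Sparcl1, which encodes the secreted protein hevin, stood at 19.6 ± 2.51 CPM in H4K91Q and 18.8 ± 2.91 CPM in H4K91R, against 3.38 ± 0.58 CPM in H4WT (log2 changes 2.53 and 2.46, adjusted p = 3.42e-07 and 2.54e-07, edgeR). Gpc4, a glypican that astrocytes secrete and that many embryonic cells carry, fell by -1.69 and -1.66 (adjusted p = 6.66e-08 and 3.84e-08, edgeR). Clu, which encodes clusterin, rose by 0.26 in H4K91Q (adjusted p = 0.0293) and fell by 0.30 in H4K91R (adjusted p = 0.0159, edgeR). The first call was lost without H4K91Q replicate 2 or H4WT replicate 2 or 3 (adjusted p = 0.0515 to 0.15) or with counts thinned to the smallest library (0.0656), and the second was lost without H4K91R replicate 1 or H4WT replicate 1 or 3 (0.0558 to 0.0761) or with scaling by library size (0.328). Some markers of mature astrocytes, Gfap, Aqp4 and Gjb6, were low, as looked up after the other values were seen. Other astrocyte genes of the list were not low. Gja1 had means of 436.9 CPM in H4K91Q, 386.1 CPM in H4K91R and 471 CPM in H4WT. Aldh1l1 had 11.45 CPM in H4K91Q, 12.08 CPM in H4K91R and 12.37 CPM in H4WT. Gfap, the astrocyte filament gene, had 16, 10 and 13 counts in H4K91Q, 3, 6 and 17 in H4K91R and 2, 10 and 1 in H4WT, and passed no test (adjusted p = 0.201 in H4K91Q and 0.211 in H4K91R, edgeR) except in H4K91R without replicate 1 of that group (0.033). Aqp4, the astrocyte water channel gene, had 0 to 8 counts in a library and was below the filter, as was Gjb6.

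**Figure D3:**
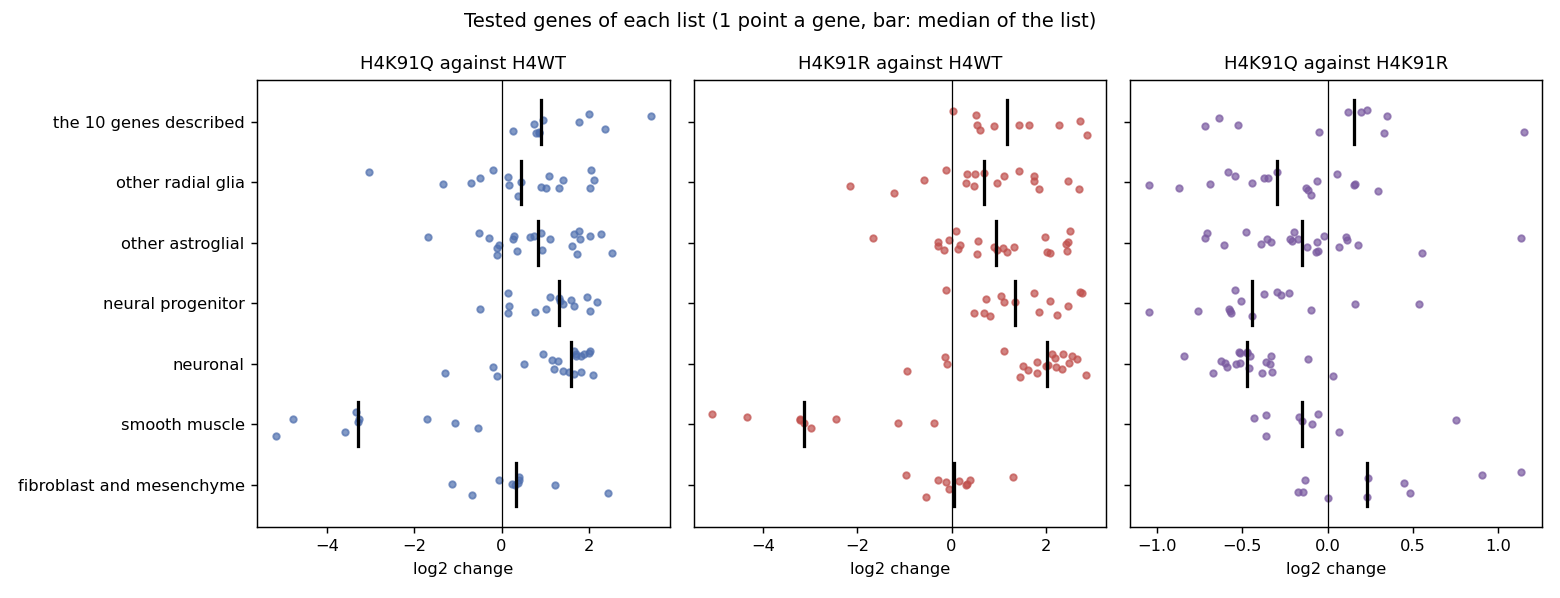
Log2 change of every tested gene of 7 lists, for H4K91Q against H4WT, H4K91R against H4WT and H4K91Q against H4K91R; each point is a gene and the bar is the median of its list. The smooth muscle genes lie to the left of 0 in both mutants, the neuronal and neural progenitor genes lie mostly to the right, and the radial glia list spreads over both sides, with Tnc farthest left at -3.03 in H4K91Q.

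The neural genes around the 10 moved in the same libraries. Of 15 neural progenitor genes 11 rose and 1 fell in H4K91Q, against 22.5% and 23.8% of all tested genes (list median 1.31). In H4K91R 14 rose and 0 fell, against 20.9% and 25.1% (list median 1.35). The neural progenitor list shares Nes, Pax6, Sox2, Msi1, Hes5, Cdh2 and Notch1 with the list of other radial glia genes, so the 2 counts are not independent. Of 20 neuronal genes 17 rose and 2 fell in H4K91Q (median 1.60; 1 fell with the replicate block), and 17 rose and 1 fell in H4K91R (median 2.02). Dpysl3, a cytoskeleton regulator of growing axons, fell to 374.2 CPM in H4K91Q and 473.8 CPM in H4K91R, against 912.8 CPM in H4WT (adjusted p = 3.18e-07 and 1.3e-06, edgeR). Both lists were lower in H4K91Q than in H4K91R, with 5 of 15 and 12 of 20 genes called, as Fabp7, Ncan and Aldoc were, against 2.78% of all tested genes. These counts rest on single libraries: without H4K91R replicate 2 they were 1 and 0, without H4K91Q replicate 1 or 2 they were 1 and 1, and without H4K91R replicate 3 the neuronal count was 6. To set the 10 genes beside this, the mean log2 CPM of the 15 neural progenitor genes was taken off in each library. Fabp7 then still differed from H4WT by 1.27 in H4K91Q and 1.42 in H4K91R, and Ncan by 0.93 and 1.28. S100b differed by 2.08 and 0.61, and Prom1 by 0.72 and 0.24, with the Prom1 libraries of H4K91R overlapping those of H4WT. The other 6 had means below H4WT on this scale: Aldoc by -0.33 in H4K91Q and -0.057 in H4K91R, Slc1a3 by -0.26 and -0.58, Nfia by -0.18 and -0.90, Nfib by -0.27 and -0.96, Nfix by -0.37 and -0.94, and Ptn by -0.84 and -1.43. Libraries overlapped those of H4WT for Aldoc in H4K91R and for Nfia, Nfib and Nfix in H4K91Q. With the 20 neuronal genes taken off instead, S100b in H4K91R differed by 0.37 and Prom1 in H4K91R by -0.0037, and no other gene changed its sign. These are differences of means over 3 libraries a group and were not tested.

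**Figure D4:**
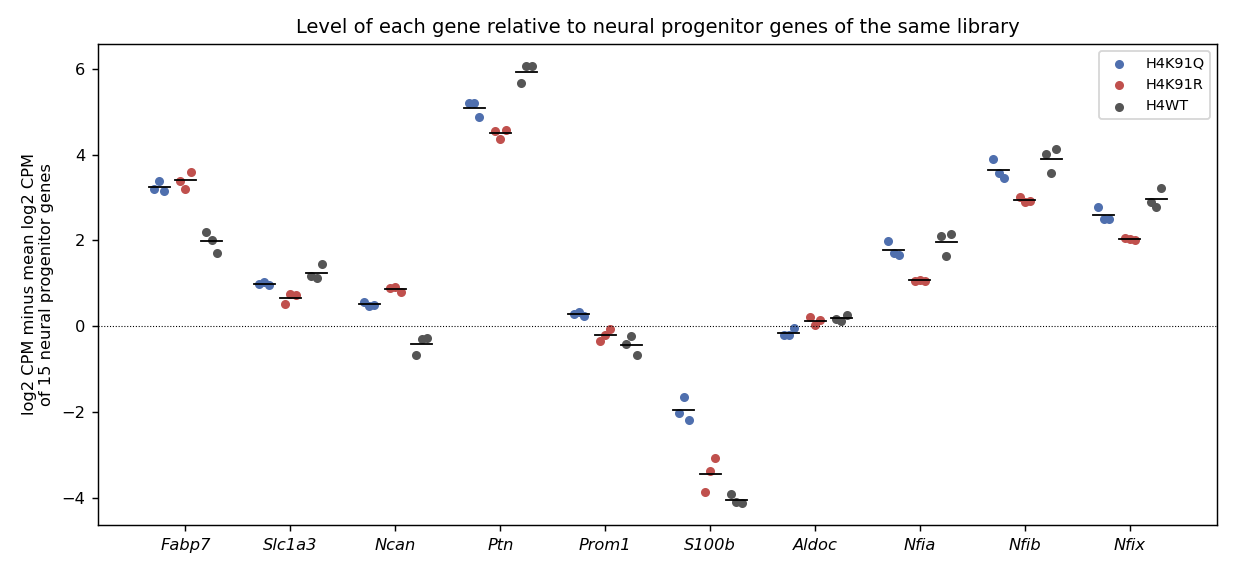
Log2 CPM of each gene minus the mean log2 CPM of 15 neural progenitor genes of the same library, for H4K91Q, H4K91R and H4WT; points are libraries and bars are means. Fabp7 and Ncan lie above H4WT in every mutant library, while Ptn lies below H4WT in every one.

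Markers of the other cells that use some of these genes were counted too. Over all tested genes 22.5% rose and 23.8% fell in H4K91Q, and 20.9% rose and 25.1% fell in H4K91R. Schwann and neural crest genes had 8 of 11 tested, with 6 higher and 0 lower in H4K91Q and 6 higher and 1 lower in H4K91R. Their summed level was 133.4 to 148 CPM in H4K91Q and 150.7 to 192.2 CPM in H4K91R, against 41.96 to 55.71 CPM in H4WT. Most of it came from Gap43, which neurons also express, Ngfr and Ednrb, whereas Sox10, which defines Schwann cells and oligodendrocytes, had 0 to 3 counts in every library. Oligodendrocyte lineage genes had 7 of 12 tested, with 5 higher and 1 lower in each mutant and 0 called between the mutants, and a summed level of 675.9 to 769.1 CPM in H4K91Q and 673 to 757 CPM in H4K91R, against 546.9 to 633.8 CPM in H4WT, most of it Pdgfra, which mesenchyme also expresses. Beside the higher S100b of H4K91Q against H4K91R stood 2 fibroblast genes of 10 with higher levels in H4K91Q, Lum (log2 change 1.14, adjusted p = 0.0208) and Prrx1 (0.90, adjusted p = 0.0356, edgeR). The call of Lum was lost without H4K91Q replicate 2 or H4K91R replicate 1 or 2 (adjusted p = 0.0516 to 0.0917), and that of Prrx1 when any one H4K91Q library or H4K91R replicate 1 or 2 was left out (0.0562 to 0.124). By DESeq2 neither passed (adjusted p = 0.0607 for Lum and 0.072 for Prrx1). Of 10 pluripotent cell genes 8 were also higher in H4K91Q than in H4K91R, where 2.37% of all tested genes were. Their summed level was 277 to 347.4 CPM in H4K91Q and 186.6 to 205.1 CPM in H4K91R, against 253 to 281 CPM in H4WT. The part of these cells in the values of the 10 genes was not tested.

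The genes most like each of the 10 over the 9 libraries were taken by the root mean square difference of log2 CPM centred on each gene's own mean, among tested genes with at least 2 CPM. The likeness is a description over libraries that share 3 groups. Nearest to Fabp7 were Lbx1 (0.20), Rfx4 (0.20) and Spon1 (0.20), and to Ncan Pou3f2 (0.10), Adgrg1 (0.11) and Brsk2 (0.12). Prom1 was nearest to Igfbp4 (0.13), Sox2 (0.15) and Socs2 (0.16), and S100b to Dkk2 (0.27), Clec3b (0.29) and Steap4 (0.31). Nearest to Aldoc were Nyap1 (0.070), Chrna4 (0.11) and Hap1 (0.11), and to Slc1a3 Trim36 (0.10), Zfp60 (0.11) and Vangl2 (0.11). The imprinted gene H19 was among the 3 nearest to both Nfia (0.10) and Nfib (0.10), and Zfp354c among those of both Nfib (0.092) and Nfix (0.071). Within the set the nearest pairs were Nfia and Nfib (0.059 apart), Nfib and Nfix (0.11), Nfia and Nfix (0.12) and Slc1a3 and Nfix (0.18), while Fabp7 and Ncan lay 0.29 apart.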

How the data were processed

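Poly(A) RNA of 9 libraries, 3 a group, was sequenced from kits named in the labels (RNeasy, NEBNext Ultra II). The table deposited by the authors holds expected counts, all of them whole; Salmon 0.8.2, DESeq2 and the build mm10 are named without a role, per the submitters' processing notes. For annotation, trimming and strand setting the sources used here give nothing. Of 24100 Entrez IDs, 24045 matched a RefSeq symbol (GRCm38.p6); the other 55 stayed in the tests.

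Genes were filtered with filterByExpr (minimum count 10) and scaled by TMM (factors 0.911 to 1.06) in edgeR 4.0.16 (R 4.3.3). The quasi-likelihood fit took all 9 libraries together, a mean for each group, with p-values two-sided and Benjamini-Hochberg adjusted over 14761 genes, and was checked on simulated counts. A CPM is a count as a rate of the scaled library total. Totals were 8970553 to 28887501 counts with a median of 16364686, and limits from counts cover counting error only. Replicates of a group differed by more than sampling noise.

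Same-numbered libraries correlated in their deviations from the group means at 0.141 to 0.198 in 3 of 3 pairs of H4K91Q and H4WT. Of the pairs with H4K91R, not all did. Libraries of unlike number could correlate as strongly, such as H4K91R replicate 3 with H4WT replicate 2 at 0.265. Whether the numbers pair the groups cannot be told from so few libraries. No label says what a number shares.

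Alternatives were other scalings (DESeq2 size factors, library size), the tests of DESeq2 1.42.0 and limma-voom 3.58.1, no filter, a replicate block, only the compared groups, counts thinned to the smallest library and each library left out, 17 in all. The 10 genes and the lists were chosen with earlier results of these data known. All 10 genes were named; from their families any gene could be; from each marker list up to 3 called genes of at least 1 CPM per comparison, by smallest adjusted p; exceptions are stated. Counts of genes that share near-identical sequence are uncertain.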

Additional observations from a re-analysis of the deposited data

Results flagged for a closer look

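The effects of the mutants against H4WT differed from each other for 4 of the 10 genes, by the direct test of H4K91Q against H4K91R. Ncan was lower in H4K91Q, with a log2 difference of -0.72 (adjusted p = 0.00337, edgeR) and 3 of 3 H4K91Q libraries below every H4K91R library. Aldoc differed by -0.64 (adjusted p = 0.00729, edgeR) and Fabp7 by -0.52 (adjusted p = 0.0277, edgeR), each with the same separation of libraries. S100b differed by 1.15 (adjusted p = 0.0144, edgeR), with 3 of 3 H4K91Q libraries above every H4K91R library. Nfia, Nfib and Ptn, which were not called, also had every H4K91Q library above every H4K91R library (adjusted p = 0.0577, 0.066 and 0.243, edgeR). The share of all tested genes separated in this way was not counted. The calls of Fabp7 and S100b each depended on single libraries, as given above.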

How the results depend on the processing

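Over the 10 genes, 3 comparisons and 17 alternatives, 488 of 510 gene values kept their direction and side of the threshold. Against H4WT the 9 called genes stayed called in every alternative. Scaling by library size moved the median log2 change of all genes to 0.18 in H4K91Q and 0.15 in H4K91R against H4WT, and gave 5557 higher and 2069 lower genes in H4K91Q and 5031 higher and 2013 lower in H4K91R. DESeq2 gave 619 lower genes in H4K91Q against H4K91R. In that comparison 3 of the 10 genes were higher with no filter and 3 with only the compared groups, Nfia and Nfib joining S100b. With each library left out in turn, the 10 genes gave 0 to 3 higher and 2 to 3 lower in H4K91Q against H4K91R, over all genes 108 to 539 higher and 67 to 553 lower. Among the 10 genes the sign turned for 3 values that never passed the test: Ptn in H4K91R against H4WT, to -0.01 without H4K91R replicate 3 and -0.092 without H4WT replicate 1 (range -0.092 to 0.18 over left-out libraries); Prom1 between the mutants, to -0.0027 without H4K91R replicate 1 (range -0.0027 to 0.19); and Slc1a3 between the mutants, to 0.045 without H4K91R replicate 2 and 0.0093 without H4K91Q replicate 1 (range -0.17 to 0.045). Of 1137 values of the other genes named, 1086 kept direction and side of the threshold. The sign turned for Nes in H4K91R, to 0.068 with library size scaling and 0.059 without H4WT replicate 1 (range -0.22 to 0.059), and for Nfic, to 0.041 in H4K91Q and 0.15 in H4K91R with library size scaling and, in H4K91R, to 0.025 without H4K91R replicate 3 and 0.083 without H4WT replicate 3 (range -0.098 to 0.083). The cause of these changes was not tested. Between H4K91Q and H4WT, 6 of 6 libraries correlated best with the library of their own number, at 0.141 to 0.198. This did not hold between H4K91R and H4WT (r -0.163 to 0.174, 2 of 6 libraries) or between H4K91Q and H4K91R (-0.0518 to 0.198, 2 of 6). With a replicate block, 3344 genes were higher and 3496 lower in H4K91Q against H4WT, 3107 and 3644 in H4K91R against H4WT, and 448 and 563 in H4K91Q against H4K91R; of the 10 genes 10, 9 and 1 were higher and 0, 0 and 3 lower, the addition being Ptn in H4K91Q (log2 change 0.28, adjusted p = 0.036, edgeR). The block changed no other call of the 10 genes. Low counts limit S100b in H4WT and the markers below the filter.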
